A study of Mus musculus with 4 samples.

Results

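The 10 genes Irf4, Batf3, Kdm6b, Klf4, Egr2, Myc, Bhlhe40, Pparg, Rxra and Bcl6 encode regulators of the transcriptional response of macrophages to interleukin-4 (IL-4), and were taken by gene symbol from 18193 measured genes. They were read by 18 probe sets that name no other gene, and 1 further probe set, shared by Kdm6b and another gene, was not used. Thioglycolate-elicited peritoneal macrophages of mice were cultured for 18 hours on slides, and 4 combinations were measured: Dap12-KO with IL-4, Dap12-KO untreated, wild type with IL-4 and wild type untreated. Thioglycolate is an irritant that recruits macrophages, and DAP12 is the signalling adaptor encoded by Tyrobp. The study asked how the lack of DAP12 alters macrophage transcripts at rest and after IL-4. Each combination stands on 1 array, so differences between arrays carry no replicate error and no test, and the number of arrays limits their precision. The series title speaks of a knockout and its design text of a knockdown. The allele, the strain, the age and number of the mice, whether animals were pooled, and the dose of IL-4 are not given in the sources used here.

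IL-4 binds its receptor on macrophages and activates JAK kinases, which phosphorylate STAT6. STAT6 then binds DNA and turns on genes of alternative activation, among them further transcription factors that extend the programme. Most of the genes described here are placed in that second layer. Kdm6b instead encodes a histone demethylase that removes a repressive methyl mark from histone H3, and Rxra the common partner of many nuclear receptors. Bcl6 encodes a repressor, and its brighter probe set was not higher with IL-4 in either genotype here.

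All values are RMA levels on the log2 scale, and a difference of 1 is a 2-fold difference. Genes were compared where the highest of their 4 values reached 6.39, the median of all values, and all 10 regulators did. The IL-4 array labelled Dap12-KO had a narrower spread of values than the other 3, with an interquartile range of 2.54 against 3.19 to 3.25. The median gene therefore differed by −0.40 between the arrays labelled Dap12-KO and by −0.39 between the IL-4 arrays, but by −0.03 for IL-4 in wild type and by 0.03 between the untreated arrays. Cyclic loess removes trends over level between arrays, and its values are given beside the deposited ones for the regulators' differences and for list counts that involve that array. The median gene then differed by 0.07, 0.11, 0.01 and 0.09 in the same 4 comparisons. Tyrobp read 13.27 with IL-4 and 14.03 untreated on the arrays labelled Dap12-KO, against 14.13 with IL-4 and 14.39 untreated in wild type. The signal of its single probe set thus goes against the label, unless the probes lie outside the deleted part of the gene, in which case it checks nothing. Directions between genotypes below rest on the labels.

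Irf4 and Batf3 were the regulators that rose with IL-4 in the fit over both genotypes. IRF4 is an interferon regulatory factor that acts downstream of the demethylase encoded by Kdm6b in alternative activation of mouse macrophages. BATF3 is a small leucine zipper protein of the AP-1 family, best known from dendritic cells, and BATF proteins bind composite DNA sites together with IRF4. Irf4 read 11.49 with IL-4 and 8.86 untreated on the arrays labelled Dap12-KO, and 12.37 with IL-4 and 10.66 untreated in wild type. Both IL-4 arrays were thus above both untreated arrays, and the untreated array labelled Dap12-KO was the lowest of the 4. The log2 differences with IL-4 were 2.63 on the arrays labelled Dap12-KO and 1.71 in wild type, where 20 and 49 of 12767 genes had larger ones, and 3.24 and 1.74 after cyclic loess. Batf3 read 10.43 with IL-4 and 7.67 untreated on the arrays labelled Dap12-KO. In wild type it read 10.27 with IL-4 and 8.38 untreated. The IL-4 arrays lay close together for Batf3, and again both stood above the untreated ones. Its log2 differences were 2.77 on the arrays labelled Dap12-KO and 1.89 in wild type, exceeded by 14 and 42 genes, and 3.44 and 1.93 after cyclic loess.

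A limma fit with the genotypes as replicates of IL-4 and genotype as a block gave an increase of 2.17 ± 0.42 for Irf4 (SE, adjusted p = 8.175e-05, limma, 4 arrays) and of 2.33 ± 0.42 for Batf3 (SE, adjusted p = 1.293e-05, limma, 4 arrays). Of the 10 regulators 2 rose and 0 fell at an adjusted p under 0.05 in limma, against 0.54% and 1.1% of all genes. At an unadjusted p under 0.05, 4 were higher and 0 lower, the others being Kdm6b and Klf4. Among all genes 1246 of 12767 had such a limma p, in either direction. The fit has 1 residual degree of freedom, and its prior degrees of freedom were infinite, so every gene received the same standard error and the calls follow the size of the mean difference alone. After cyclic loess limma called 0 of the 10, with Irf4 at 2.49 (adjusted p = 0.4213) and Batf3 at 2.68 (adjusted p = 0.4068). There 7 were higher at an unadjusted p under 0.05, beside 814 of 12446 genes in either direction. Without the IL-4 array labelled Dap12-KO, a limma fit on the other 3 arrays with no genotype term also called 0 of the 10, with Irf4 at 2.61 and Batf3 at 2.25 (adjusted p = 0.9995 for both). Over all alternatives the adjusted p from limma ranged between 6.415e-05 and 0.9995 for Irf4 and between 9.216e-08 and 0.9995 for Batf3. With genotype as a block, the only spread left in the fit is the difference between both IL-4 responses. As deposited it was pooled over all genes, so these p-values do not measure a gene's own spread between replicates. Nothing in the labels says that the arrays came from separate animals or cultures, and the spread between them may be technical. The second Irf4 probe set was dim, at 6.51 with IL-4 and 6.36 untreated on the arrays labelled Dap12-KO, and 7.16 with IL-4 and 6.66 untreated in wild type. Its differences, 0.15 (0.12 after cyclic loess) and 0.50, had the same sign as those of the bright probe set.

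The promoter windows of these genes and of Bcl6, the regulator with the lowest difference with IL-4, are shown because STAT proteins recognise palindromes made of TTC and GAA with a few bases between. RefSeq promoter entries (GRCm38.p6, 250 bases before to 50 after the transcript start) were matched by symbol for 7 of the 10 genes, with 15 windows in all; Myc, Kdm6b and Bhlhe40 had no entry. Capitals mark the palindrome TTCNNNGAA and the E-box CACGTG, the hexamer bound by MYC and BHLHE40. The windows lie at chr13:30748983-30749282, plus strand for Irf4, at chr1:191098164-191098463, plus strand for Batf3, and at chr16:23988803-23989102, minus strand and chr16:23981234-23981533, minus strand for the first and second start of Bcl6.
Irf4: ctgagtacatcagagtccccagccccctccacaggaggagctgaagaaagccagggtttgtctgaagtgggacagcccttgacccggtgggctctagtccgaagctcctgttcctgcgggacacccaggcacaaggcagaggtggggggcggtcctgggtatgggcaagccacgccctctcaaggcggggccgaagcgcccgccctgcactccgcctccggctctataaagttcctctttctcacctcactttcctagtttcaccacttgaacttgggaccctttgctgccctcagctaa
Batf3: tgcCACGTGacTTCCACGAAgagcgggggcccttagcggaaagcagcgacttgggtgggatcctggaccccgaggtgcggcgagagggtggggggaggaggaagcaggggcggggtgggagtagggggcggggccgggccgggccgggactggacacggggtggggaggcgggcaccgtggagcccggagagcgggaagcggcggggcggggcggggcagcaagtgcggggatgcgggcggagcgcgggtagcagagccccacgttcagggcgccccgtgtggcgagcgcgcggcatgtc
Bcl6 first start: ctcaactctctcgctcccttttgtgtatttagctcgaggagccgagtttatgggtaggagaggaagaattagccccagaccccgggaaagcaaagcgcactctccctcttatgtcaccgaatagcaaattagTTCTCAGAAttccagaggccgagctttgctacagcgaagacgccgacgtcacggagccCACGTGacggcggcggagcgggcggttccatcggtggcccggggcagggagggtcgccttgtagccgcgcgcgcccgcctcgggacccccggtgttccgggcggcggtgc
Bcl6 second start: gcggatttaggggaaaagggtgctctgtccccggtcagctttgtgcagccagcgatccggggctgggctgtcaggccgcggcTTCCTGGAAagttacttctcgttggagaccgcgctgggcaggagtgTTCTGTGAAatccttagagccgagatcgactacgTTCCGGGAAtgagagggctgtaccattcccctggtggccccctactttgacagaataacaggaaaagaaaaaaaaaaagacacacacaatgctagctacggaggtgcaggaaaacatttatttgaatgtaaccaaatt
TTCNNNGAA occurred in 3 of the 15 windows, which belong to 2 genes, against 8.3% of 32851 promoters of the same length. Egr2 holds 5 of the 15 windows and some of these overlap almost wholly, so windows are not independent counts. Counting the transcript start as position 0, Batf3 holds TTCCACGAA at −239 to −231, next to an E-box at −247 to −242 with which it does not overlap. The first Bcl6 window holds TTCTCAGAA at −118 to −110 and an E-box at −60 to −55, and the second holds TTCCTGGAA, TTCTGTGAA and TTCCGGGAA at −168 to −160, −122 to −114 and −88 to −80. The spacing favoured by STAT6, with 4 free bases between TTC and GAA, occurred in 0 of the 15 windows and 6.95% of all promoters. The E-box occurred in 4 windows, those of Klf4, Batf3, the first start of Bcl6 and 1 start of Egr2, against 7.15% of all promoters. Both strands were searched for all motifs. The GC box GGGCGGGG was in 5 windows (17.6% of all promoters), while the AP-1 site TGANTCA (7.81%), a tandem of GAAA with 2 free bases between, as IRF proteins bind (3.44%), and the EGR site GCGTGGGCG (0.612%) were in 0 of the 15. The Irf4 window held none of the 7 motifs. A match describes the letters of these windows and not a bound site.

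**Figure D1:**
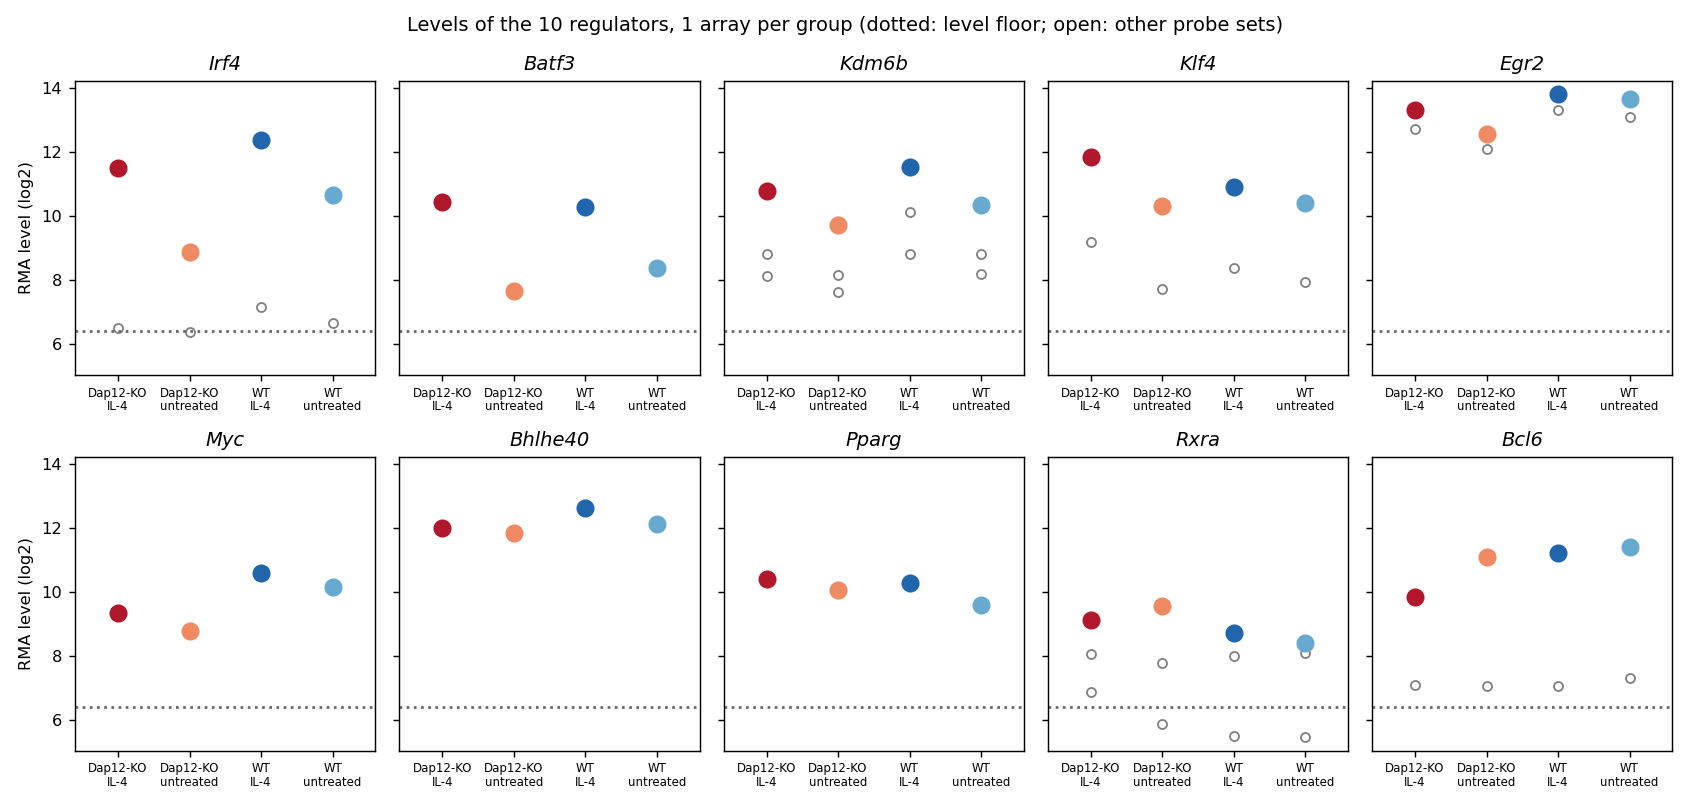
RMA levels (log2, y axis) of the 10 regulators on the 4 arrays (x axis), with the arrays labelled Dap12-KO left of wild type and IL-4 left of untreated. Filled points are the probe set used for the gene, open points its other probe sets, and the dotted line is the level floor of 6.39. All regulators but Rxra and Bcl6 stand higher on the IL-4 array than on the untreated array within each genotype, by 1.71 or more for Irf4 and Batf3.

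Kdm6b, also known as Jmjd3, had a similar excess with IL-4 in both genotypes. Its brightest probe set read 10.79 with IL-4 and 9.71 untreated on the arrays labelled Dap12-KO, and 11.52 with IL-4 and 10.33 untreated in wild type. The differences were 1.08 on the arrays labelled Dap12-KO and 1.19 in wild type, and 1.70 and 1.23 after cyclic loess. The other Kdm6b probe sets differed in the same direction, by 0.67 and 0.49 on the arrays labelled Dap12-KO (1.33 and 1.05 after cyclic loess) and by 1.31 and 0.63 in wild type. The median over the 3 probe sets was 0.67 on the arrays labelled Dap12-KO, under 2-fold. In limma, Kdm6b was higher by 1.13 ± 0.42 (SE, adjusted p = 0.203, 4 arrays).

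Klf4 and Egr2 encode zinc finger factors that IL-4 is known to induce in macrophages, KLF4 as a partner of STAT6. Klf4 read 11.84 with IL-4 and 10.31 untreated on the arrays labelled Dap12-KO, against 10.91 with IL-4 and 10.39 untreated in wild type. The IL-4 array labelled Dap12-KO was the highest of the 4, and the untreated arrays lay within 0.08 of each other. The IL-4 differences were 1.53 and 0.53 as deposited and 2.14 and 0.56 after cyclic loess. The second Klf4 probe set gave 1.46 on the arrays labelled Dap12-KO, or 2.05 after cyclic loess, and 0.46 in wild type. Egr2 was bright on every array, at 13.32 with IL-4 and 12.56 untreated on those labelled Dap12-KO, and 13.80 with IL-4 and 13.67 untreated in wild type. The wild type arrays were nearly level, and the untreated array labelled Dap12-KO was the low one. The IL-4 differences of Egr2 were 0.77 on the arrays labelled Dap12-KO, or 1.20 after cyclic loess, and 0.13 in wild type. Its other probe set differed by 0.64, or 1.12 after cyclic loess, and by 0.22. Neither gene passed limma, with adjusted p = 0.2969 for Klf4 and 0.7581 for Egr2.

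Myc and Bhlhe40 encode basic helix-loop-helix factors. MYC, paired with MAX, drives ribosome production and growth, and BHLHE40 is a repressor needed for macrophage proliferation under IL-4 in mice. Myc read 9.33 with IL-4 and 8.77 untreated on the arrays labelled Dap12-KO. On the wild type arrays it read 10.59 with IL-4 and 10.14 untreated. As deposited, both arrays labelled Dap12-KO lay below both wild type arrays. After cyclic loess the IL-4 array labelled Dap12-KO (9.89) and the untreated wild type array (9.93) nearly coincided. The IL-4 differences were 0.56 on the arrays labelled Dap12-KO, or 1.22 after cyclic loess, and 0.45 in wild type, and limma gave 0.51 ± 0.42 (SE, adjusted p = 0.7369, 4 arrays). Bhlhe40 varied least, at 12 with IL-4 and 11.84 untreated on the arrays labelled Dap12-KO, and 12.61 with IL-4 and 12.10 untreated in wild type, a range of 0.76. Its IL-4 differences were 0.16 on the arrays labelled Dap12-KO, or 0.69 after cyclic loess, and 0.51 in wild type (limma adjusted p = 0.8016).

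Pparg and Rxra encode nuclear receptors that bind DNA as a pair and respond to fatty acid ligands. Pparg read 10.39 with IL-4 and 10.04 untreated on the arrays labelled Dap12-KO, and 10.26 with IL-4 and 9.59 untreated in wild type. It was highest on the IL-4 array within each genotype, and the wild type untreated array was the lowest. The IL-4 differences of Pparg were 0.35 on the arrays labelled Dap12-KO, or 1.01 after cyclic loess, and 0.68 in wild type, with adjusted p = 0.7318 in limma. For Rxra the brightest probe set read 9.11 with IL-4 and 9.55 untreated on the arrays labelled Dap12-KO, and 8.71 with IL-4 and 8.41 untreated in wild type. Both arrays labelled Dap12-KO were above both wild type arrays in that probe set. Its IL-4 differences were −0.44 on the arrays labelled Dap12-KO, or 0.22 after cyclic loess, and 0.30 in wild type (limma adjusted p = 0.9526). Of the other Rxra probe sets, the brighter did not share the genotype pattern. The dimmer did, with differences between genotypes of 1.37 with IL-4 and 0.42 untreated, or 1.08 and 0.42 after cyclic loess. The second read 8.06 with IL-4 and 7.79 untreated on the arrays labelled Dap12-KO, and 7.99 with IL-4 and 8.09 untreated in wild type, and the third was under the level floor on all arrays but the IL-4 array labelled Dap12-KO.

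Bcl6, a zinc finger repressor whose DNA motif resembles that of STAT factors, was the regulator without an excess on either IL-4 array. It read 9.82 with IL-4 and 11.09 untreated on the arrays labelled Dap12-KO, against 11.22 with IL-4 and 11.41 untreated in wild type. Only the IL-4 array labelled Dap12-KO stood apart, and the other 3 spanned 11.09 to 11.41. The IL-4 differences were −1.27 on the arrays labelled Dap12-KO, or −0.66 after cyclic loess, and −0.19 in wild type (limma adjusted p = 0.6038). The dim second Bcl6 probe set read 7.09 with IL-4 and 7.05 untreated on the arrays labelled Dap12-KO, and 7.06 with IL-4 and 7.31 untreated in wild type, so it did not show the low value.

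Counted over the 10 genes, 4 were 2-fold higher with IL-4 on the arrays labelled Dap12-KO (Batf3, Irf4, Klf4 and Kdm6b), where 8.04% of all genes were, and 1 was 2-fold lower (Bcl6), where 17.6% of all genes were. In wild type 3 were 2-fold higher (Batf3, Irf4 and Kdm6b), against 1.21% of all genes, and 0 were lower, against 1.25%. After cyclic loess the counts were 7 higher and 0 lower on the arrays labelled Dap12-KO, against 9.95% and 6.07% of all genes, and again 3 and 0 in wild type, against 1.33% and 1.13%. The median difference of the 10 was 0.66 on the arrays labelled Dap12-KO and 0.52 in wild type, beside −0.40 and −0.03 over all genes. After cyclic loess it was 1.21 and 0.55, beside 0.07 and 0.01. The genes were chosen as parts of the IL-4 programme with earlier results of these arrays known, so their direction is no independent evidence of one.

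**Figure D2:**
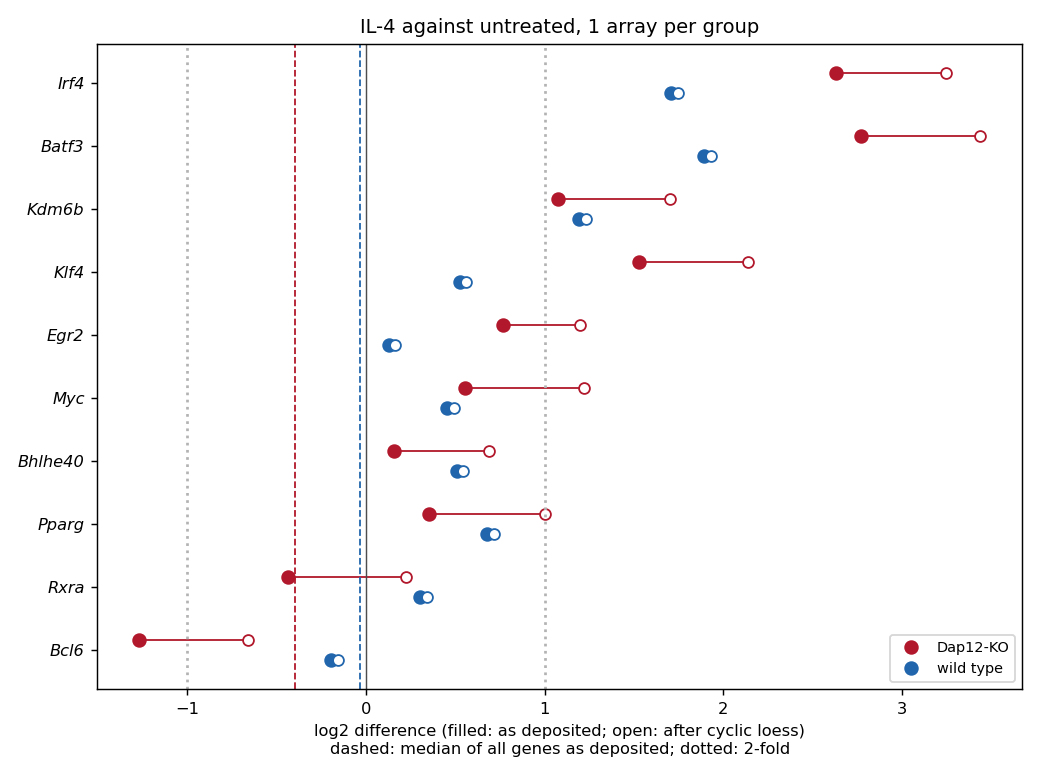
Log2 difference of IL-4 against untreated (x axis) for each regulator (y axis) on the arrays labelled Dap12-KO (red, upper point) and wild type arrays (blue, lower point), 1 array per group. Filled points are values as deposited and open points values after cyclic loess, which moved every red point up; dashed lines mark the median of all genes and dotted lines 2-fold.

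The difference between both IL-4 responses, the arrays labelled Dap12-KO minus wild type, was past 2-fold as deposited for Klf4 (1.0, higher) and Bcl6 (−1.07, lower), where 8.15% of all genes were higher and 14.8% lower. After cyclic loess 4 genes were past it, all higher: Klf4 at 1.58, Batf3 at 1.51, Irf4 at 1.5 and Egr2 at 1.03, against 9% of all genes, with 0 lower against 5.75%. As deposited these read 0.88 for Batf3, 0.92 for Irf4 and 0.64 for Egr2, where the median gene stood at −0.36. The dim other probe sets had the opposite sign, at −0.35 for Irf4 (−0.42 after cyclic loess) and 0.28 for Bcl6 (0.44). Those of Klf4 (0.998, or 1.55 after cyclic loess) and Egr2 (0.42, or 0.87) kept the sign. With 1 array per group the difference between responses has no test.

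Between genotypes, the untreated array labelled Dap12-KO held less Irf4, Myc and Egr2 transcript than the untreated wild type array. Irf4 was 3.48-fold lower (log2 difference −1.80), with 107 of 12767 genes at smaller values. Its dim second probe set differed by −0.30. Myc was 2.58-fold lower (−1.37) and Egr2 2.16-fold lower (−1.11). The other Egr2 probe set differed by −1.01. Of the 10 genes 3 were 2-fold lower, against 3.41% of all genes, and 1 was higher, against 3.12%. The higher one was Rxra at 1.14, but its other probe sets differed by 0.42 and −0.31. Batf3 (−0.71), Kdm6b (−0.62), Bcl6 (−0.33), Bhlhe40 (−0.26) and Klf4 (−0.08) were under 2-fold and below 0, and Pparg was at 0.45. The median of the 10 was −0.47, beside 0.03 over all genes. The counts were the same after cyclic loess, 3 lower and 1 higher, against 2.94% and 3.74% of all genes. These untreated arrays had similar spreads, and the narrower array does not enter their deposited differences. It does enter the choice of probe set, the level floor and cyclic loess, which used all 4 arrays. In bulk RNA a smaller number of expressing cells and less RNA per cell cannot be told apart.

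Of the IL-4 arrays, the one labelled Dap12-KO was 2-fold lower than wild type for Myc (−1.26) and Bcl6 (−1.40), against 17.6% of all genes, and 2-fold higher for 0 of the 10, against 10.9%. After cyclic loess 0 were lower, against 5.51% of all genes, with Myc at −0.53 and Bcl6 at −0.73. Klf4 at 1.60 and Rxra at 1.12 were then higher, against 12.6%, where they had been at 0.93 and 0.40 as deposited. Irf4 differed by −0.88 as deposited and −0.20 after cyclic loess, Egr2 by −0.48 and −0.01, and Batf3 by 0.17 and 0.89. Pparg differed by 0.13 and 0.84, Kdm6b by −0.73 and −0.04, and Bhlhe40 by −0.61 and −0.03. The dim second Bcl6 probe set differed by 0.02, or 0.23 after cyclic loess. The other Kdm6b probe sets differed by −1.32 and −0.70, or −0.60 and −0.10 after cyclic loess. The sizes of these differences thus depend on the scaling, and for Bcl6 and Kdm6b also on the probe set. The call for Myc and Bcl6 ended under cyclic loess.

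**Figure D3:**
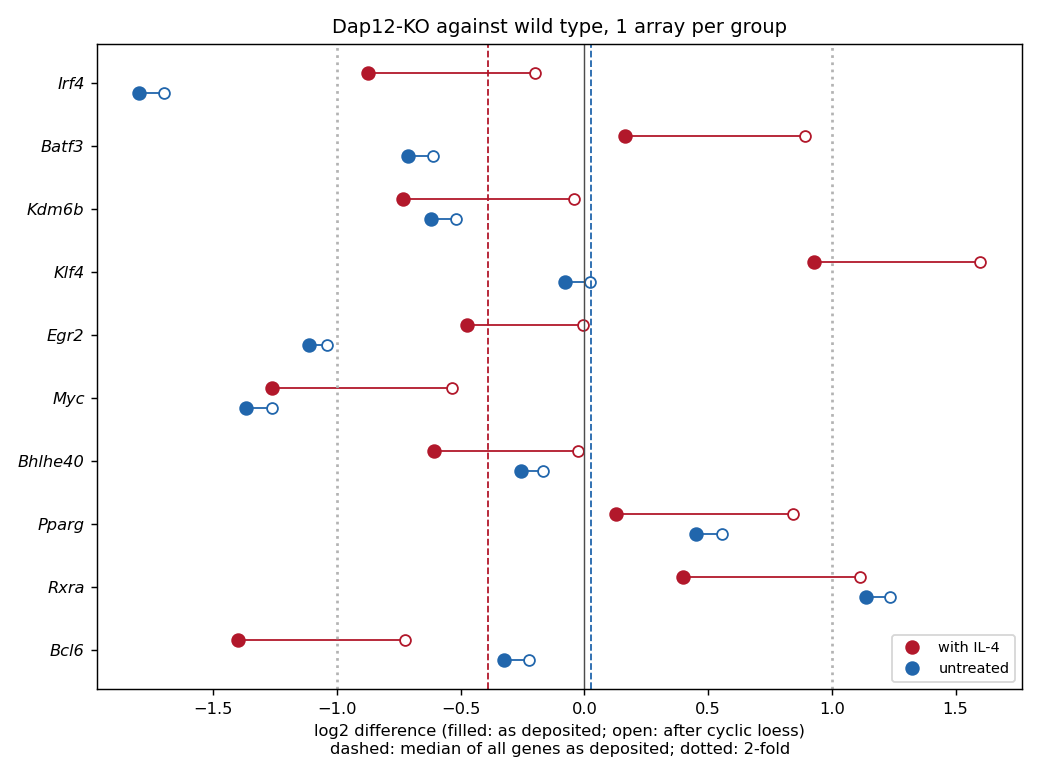
Log2 difference of Dap12-KO against wild type, as labelled (x axis), for each regulator (y axis), with IL-4 (red, upper point) and untreated (blue, lower point), 1 array per group. Filled points are values as deposited, open points values after cyclic loess, dashed lines the median of all genes and dotted lines 2-fold. The untreated values of Irf4, Myc and Egr2 lie beyond 2-fold on the low side under both scalings.

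Without treatment, Myc and the median of genes that MYC is known to activate were below wild type under the Dap12-KO label. A link between them was not tested. Of 18 MYC target genes measured, on the untreated array labelled Dap12-KO 0 were 2-fold higher and 7 lower than in wild type, beside the 3.12% and 3.41% of all genes, and their median was −0.85. The largest differences were those of the spermidine synthase gene Srm (−1.35), the growth regulator Pa2g4 (−1.29), the nucleolar protein gene Nop56 (−1.28) and the RNA polymerase I subunit gene Polr1b (−1.19). Tfrc (0.72), Ccnd2 (0.33), Cdk4 (0.07) and Ldha (0.03) lay above 0. After cyclic loess 5 of the 18 were lower, against 2.94% of all genes, with a median of −0.76. With IL-4, 7 of the 18 were again lower as deposited (median −0.89), where 17.6% of all genes were, and 0 after cyclic loess (median −0.29, beside 0.11 over all genes). With IL-4 against untreated 0 of the 18 differed by 2-fold in either genotype as deposited, and limma called 0 of them, with 0 at an unadjusted p under 0.05. After cyclic loess 2 were higher on the arrays labelled Dap12-KO, Srm (1.185) and Nop56 (1.07), and 0 lower, against 9.95% and 6.07% of all genes. The list median there was then 0.45, beside 0.07 over all genes. Limma then called 0, with 1 higher at an unadjusted p under 0.05, beside 814 of 12446 genes in either direction.

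Among 24 measured partners and corepressors, 2 were 2-fold higher between untreated arrays in the one labelled Dap12-KO and 0 were lower, and both encode proteins that compete with MYC for MAX. Mxi1 read 10.87 on that array and 9.43 on the wild type array, and Mxd4 read 9.46 and 8.38. Over all genes these shares were 3.12% and 3.41%. Of the other competitors listed, Mxd1 differed by 0.97, Mnt by 0.23 and Mxd3 by −0.27, and Max itself by −0.28. A link of these levels to MYC was not tested. With IL-4 in wild type 0 of the 24 differed by 2-fold. On the arrays labelled Dap12-KO 8 were lower with IL-4 as deposited, led by Mxi1 (−2.03) and the coactivator gene Ncoa2 (−1.78), and 2 after cyclic loess, where 17.6% and 6.07% of all genes were. In limma 0 of the 24 were called, with 3 lower at an unadjusted p under 0.05. Among all genes 1246 of 12767 had such a p, in either direction.

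Close relatives of the 10 genes were mostly under 2-fold with IL-4. Of 29 paralogues above the level floor, IL-4 in wild type left 0 at 2-fold higher levels and 1 at a lower level, beside 1.21% and 1.25% of all genes. The lower one was the interferon response factor gene Irf7 (−1.21), and the median of the 29 was −0.13. Irf8, the nearest relative of Irf4, differed by −1.65 on the arrays labelled Dap12-KO, or −1.03 after cyclic loess, and by −0.98 in wild type. It read 10.11 with IL-4 and 11.76 untreated on the arrays labelled Dap12-KO, and 10.25 with IL-4 and 11.23 untreated in wild type. The Egr2 relatives Egr3 and Egr4 differed by −1.80 and 1.87 with IL-4 on the arrays labelled Dap12-KO, or −1.17 and 1.96 after cyclic loess. There 2 paralogues were higher and 7 lower, beside 8.04% and 17.6% of all genes, or 4 and 3 after cyclic loess, beside 9.95% and 6.07%. In wild type Egr3 differed by 0.72, so its direction was not shared by both genotypes, and Egr4 lay below the level floor on both arrays. Limma called 0 of the 29, with 1 higher and 5 lower at an unadjusted p under 0.05. Among all genes 1246 of 12767 had such a p, in either direction. Between untreated arrays 2 were higher in the one labelled Dap12-KO, Klf2 (1.46) and Egr3 (1.13), and 1 was lower, Klf7 (−1.22). Over all genes these shares were 3.12% and 3.41%.

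Genes of the receptor pathway upstream were mostly under 2-fold, and effectors downstream were mostly past it. Of 17 measured genes of the IL-4 receptor pathway, 3 were 2-fold higher with IL-4 and 4 lower on the arrays labelled Dap12-KO, beside 8.04% and 17.6% of all genes, and 4 were higher and 0 lower in wild type, beside 1.21% and 1.25%. After cyclic loess 6 were higher and 0 lower on the arrays labelled Dap12-KO, beside 9.95% and 6.07% of all genes. Limma called 3 as rising and 0 as falling, the feedback inhibitors Cish (3.15), Socs2 (3.07) and Socs1 (1.90). Over all genes limma called 0.54% as rising and 1.1% as falling. The median of the list was −0.41 on the arrays labelled Dap12-KO, or 0.21 after cyclic loess, and 0.06 in wild type. Of 16 effector genes of alternative activation, 14 were 2-fold higher with IL-4 on the arrays labelled Dap12-KO and 13 in wild type, with 0 lower in either. The counts were the same after cyclic loess. Over all genes 8.04% and 1.21% were higher, or 9.95% and 1.33% after cyclic loess. Limma called 11 of the 16 as rising, among them Cdh1 (3.03), Mgl2 (2.76), Chil3 (2.73) and Ccl22 (2.70). The list medians were 1.99 on the arrays labelled Dap12-KO, or 2.54 after cyclic loess, and 2.08 in wild type.

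Of 14 measured PPARG and RXR target genes, which share Tgm2 with the effectors, 12 passed the level floor. With IL-4 on the arrays labelled Dap12-KO 0 of the 12 were 2-fold higher and 3 lower, beside 8.04% and 17.6% of all genes. After cyclic loess 0 were higher and 1 lower, beside 9.95% and 6.07%. In wild type 1 was higher (Tgm2, 1.19) and 0 lower, beside 1.21% and 1.25%. Limma called 0 as rising, with 0 higher at an unadjusted p under 0.05, and called 1 as falling, Cpt1a, whose product passes fatty acids to mitochondria (−1.43, adjusted p = 0.04576). On the untreated array labelled Dap12-KO 2 were 2-fold higher and 0 lower than in wild type, beside 3.12% and 3.41% of all genes. The 2 were the lipid chaperone gene Fabp4 (13.39 against 11.62 in wild type) and Cpt1a (11.33 against 9.90 in wild type). Pparg differed by 0.45 between the same arrays. Of 9 measured EGR target genes 6 passed the floor, 4 of which also stand among the paralogues or partners listed above. With IL-4 on the arrays labelled Dap12-KO 0 of the 6 were 2-fold higher and 2 lower (Egr3 at −1.80 and Nab1 at −1.33), beside 8.04% and 17.6% of all genes. After cyclic loess 1 was higher (Egr1 at 1.40) and 1 lower (Egr3 at −1.17), beside 9.95% and 6.07% of all genes, with Nab1 at −0.74. In wild type 0 differed by 2-fold. Limma called 0 of the 6, with 1 lower at an unadjusted p under 0.05. Among all genes 1246 of 12767 had such a p, in either direction. After cyclic loess limma called 0 genes in each of these lists, with 14 of the 16 effectors higher at an unadjusted p under 0.05. Among all genes 814 of 12446 then had such a p, in either direction.

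**Figure D4:**
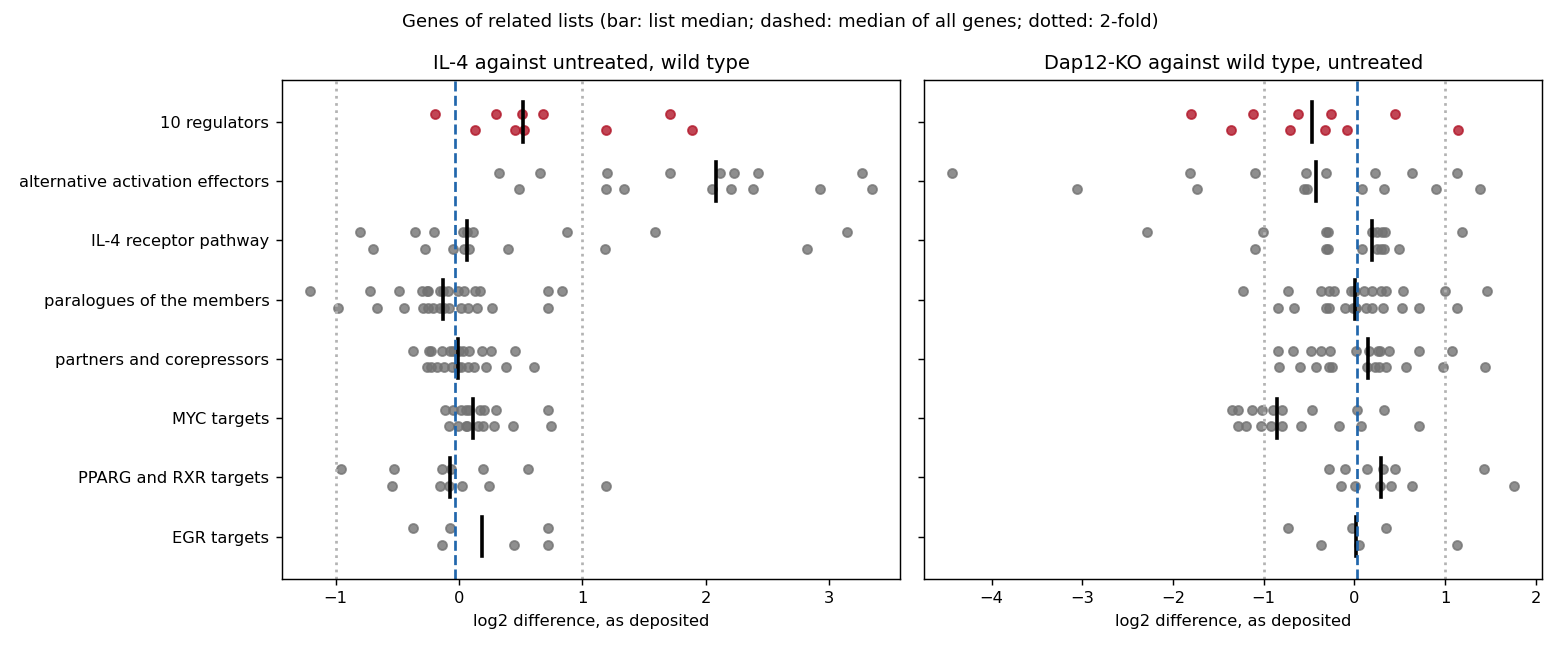
Log2 differences (x axis, as deposited) of the 10 regulators (red) and of the genes of 7 related lists (grey), 1 point per gene, for IL-4 against untreated in wild type (left) and for the untreated array labelled Dap12-KO against wild type (right). Bars are list medians, the dashed line the median of all genes and the dotted lines 2-fold. The alternative activation effectors stand highest on the left (median 2.08) and the MYC targets lowest on the right (median −0.85).

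The genes with the most similar profile over the 4 arrays were found for the 4 regulators with the widest range, by the root mean square difference of levels centred on each gene's mean, among 12766 other genes. For Irf4 (range 3.50) they were the collagenase gene Mmp13 (0.19), AA467197 (0.24) and the chemokine gene Ccl22 (0.29). Batf3 (range 2.77) was closest to the checkpoint ligand gene Pdcd1lg2 (0.15), the arginine transporter gene Slc7a2 (0.21) and Rab3il1 (0.25). Pdcd1lg2 read 9.05 with IL-4 and 6.04 untreated on the arrays labelled Dap12-KO, and the untreated one lay below the level floor. For Myc (range 1.82) these were Gpr35 (0.05), Ptgir (0.06) and Ampd2 (0.06), and for Kdm6b (range 1.81) Sstr2 (0.10), Limk1 (0.10) and Bcar3 (0.12). With 4 arrays a close profile is easily met among so many genes, and these are descriptions.

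Irf4, Batf3 and Bcl6 are also known from dendritic cells and B cells, so marker genes of other cells are given beside them. All 9 measured macrophage markers reached the level floor on every array, and summed to 73599 with IL-4 and 110517 untreated on the arrays labelled Dap12-KO, against 85824 with IL-4 and 98186 untreated in wild type. On the untreated array labelled Dap12-KO, where Irf4, Myc and Egr2 were lower, 2 of the 9 were 2-fold higher, Maf (2.19) and Mertk (1.97), and 0 lower. Over all genes 3.12% were higher and 3.41% lower. With IL-4 on the arrays labelled Dap12-KO 3 were lower, Maf (−2.45), Fcgr1 (−2.15) and Mertk (−1.39), beside 17.6% of all genes. After cyclic loess 2 were, Maf (−1.78) and Fcgr1 (−1.49), beside 6.07%. Of 9 measured dendritic cell markers, 6 reached the floor and 3 (Xcr1, Itgae and Dpp4) did so on 0 arrays. Their summed linear levels were 1307 with IL-4 and 1234 untreated on the arrays labelled Dap12-KO, and 1436 with IL-4 and 1335 untreated in wild type, and 0 of the 6 differed by 2-fold in any comparison. Of 8 measured B cell markers, Cr2 stayed below the floor on all arrays. B cell markers summed to 2724 with IL-4 and 3868 untreated on the arrays labelled Dap12-KO, against 2270 with IL-4 and 2009 untreated in wild type. On the untreated arrays 2 of 7 were 2-fold higher in the one labelled Dap12-KO, Ighm (1.24) and Ms4a1 (1.13), beside 3.12% of all genes. Resident cavity macrophage markers summed to 8914 with IL-4 and 11026 untreated on the arrays labelled Dap12-KO, and 6966 with IL-4 and 9960 untreated in wild type. Bright genes weigh most in such sums. In wild type Serpinb2 read 11.26 with IL-4 and 12.45 untreated, while Selp was higher by 1.62 with IL-4 and the list median was 0.08. Of these 10 markers, 4 were 2-fold higher and 1 lower in the untreated Dap12-KO array as labelled, beside 3.12% and 3.41% of all genes. Limma called 1 as falling with IL-4, Ltbp1 (−1.42, adjusted p = 0.0478). Summed levels of neutrophil, eosinophil, T and NK cell, mast cell, and mesothelium and fibroblast markers lay between 292 and 1462 on all arrays. Below the floor on every array were 2 of 7 measured neutrophil, 3 of 5 eosinophil, 2 of 5 T and NK cell, 4 of 7 mast cell and 5 of 9 mesothelium and fibroblast markers. Between untreated arrays, 3 of the 4 mesothelium and fibroblast markers above the floor were 2-fold lower in the one labelled Dap12-KO, Col3a1 (−1.29), Col1a2 (−1.26) and Dcn (−1.08), as also after cyclic loess. Of the 3 mast cell markers above the floor 1 was 2-fold higher there, Cma1 (1.34), with Cpa3 at 0.93 and Tpsb2 at 0.86. Over all genes 3.41% were lower and 3.12% higher between these arrays. The part of these cell markers in the differences of the regulators was not tested.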

How the data were processed

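Total RNA of 4 macrophage samples was measured on 1-colour Affymetrix arrays after 2 amplification cycles, per the labels' protocols. Such amplification favours the 3′ part of transcripts. The deposited values are log2 probe set levels made by the authors, with RMA named in the submitters' processing notes and no version stated there. The values carry no detection call and no depth. Sample titles gave the groups.

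GEO's platform annotation names 1 gene for 34945 of the 45101 probe sets, several for 932 and none for 9160, besides 64 controls. Symbols were brought up to date by Entrez identifier in RefSeq, where 34741 probe sets matched. The probe set with the highest mean stood for a gene, and 12767 of 18193 genes passed the level floor. Differences between single arrays were counted at 2-fold. For IL-4 over both genotypes, limma 3.58.1 was run in R 4.3.3 (lmFit, eBayes, genotype as a block) with Benjamini-Hochberg adjusted p-values over all genes. Genotype was not tested, since a genotype's arrays may share mice. On simulated data, with equal noise for all 12767 genes and no narrower array, it recovered 3 of 50 genes changed by 1 log2 unit, 44 of 50 at 2, 41 of 50 at −2 and 50 of 50 at 3, with 5 false calls. With unequal noise these rates need not hold. Other steps used Python 3.11.15, numpy 2.4.6, pandas 2.3.3 and matplotlib 3.10.9.

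The 10 genes, 16 other gene lists, motifs and tests were chosen with earlier results of these data known. Named were all 10 genes, Tyrobp, up to 4 genes of each list with the largest difference, and the 3 nearest profiles. Max, Mnt, Mxd3, Egr1 among EGR targets, Ltbp1 and markers below the floor were named after their values were seen. The same holds for the MYC targets Tfrc, Ccnd2, Cdk4 and Ldha between untreated arrays. Alternatives were cyclic loess (3 iterations), quantile normalization, median centring, the median or mean over probe sets, no floor, a floor at the 75th percentile, 3-fold, a fit without the genotype term and eBayes with an intensity trend. A fit on 3 arrays, without the narrower one and the genotype term, was added after the values were seen.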

Additional observations from a re-analysis of the deposited data

Results flagged for a closer look

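For 3 of the 10 genes an effect had opposite signs in the groups it was measured in, each group being 1 array or 1 pair of arrays, and the difference was not tested. Klf4 differed between Dap12-KO and wild type, as labelled, by 0.93 with IL-4 and by −0.08 untreated, or by 1.60 and 0.02 after cyclic loess, where the signs were the same. Batf3 differed by 0.17 with IL-4 and by −0.71 untreated, or by 0.89 and −0.61 after cyclic loess. The response of Rxra to IL-4 was −0.44 on the arrays labelled Dap12-KO and 0.30 in wild type, or 0.22 and 0.34 after cyclic loess, again with the same sign.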

How the results depend on the processing

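Counts of the 10 genes at 2-fold are given as higher and lower. For IL-4 on the arrays labelled Dap12-KO the deposited 4 and 1 became 7 and 0 with cyclic loess. The 1 lower gene was 0 with quantile normalization, the median over probe sets and the mean over probe sets, and at 3-fold the counts were 2 and 0. For IL-4 in wild type no alternative moved the 3 and 0 by more than 1.5 times. For Dap12-KO against wild type with IL-4, the 0 and 2 became 2 and 0 with cyclic loess and with quantile normalization, the lower count was 1 with the mean over probe sets and 0 at 3-fold. For the untreated arrays, the 1 higher gene, Rxra, became 0 with the median or mean over probe sets and at 3-fold, and the 3 lower became 1 at 3-fold. By the median over probe sets Rxra turned to −0.31. For the difference of responses, 1 and 1 became 4 and 0 with cyclic loess and with quantile normalization. The higher count was 0 with median centring, the lower was 0 with the median or mean over probe sets, and both were 0 at 3-fold. In limma the 2 genes that rose became 0 with cyclic loess, quantile normalization, no floor and no genotype term, and 1 (Batf3) with the median over probe sets. The prior degrees of freedom, infinite as deposited, were 3.48 with cyclic loess, 2.84 with quantile normalization, 5.32 with no floor and 12.17 with no genotype term. The limma differences after cyclic loess were larger than as deposited, 2.49 against 2.17 for Irf4 and 2.68 against 2.33 for Batf3. The part of each setting in the lost calls was not tested. Over all genes limma called 69 rising and 141 falling, but 0 with cyclic loess, quantile normalization or no floor, 47 and 71 with an intensity trend and 7 and 0 without the genotype term. Of the single differences of the 10 genes, 313 kept their side of 2-fold, 17 came to lie past it and 19 under it. The sign differed from the deposited one in 18 of 350, and 1 of these, Rxra between untreated arrays, was past 2-fold. No paired analysis was possible because the labels give no replicate numbers, other than the genotype block of the limma fit, which compares IL-4 within each genotype. A fit without that block and without the narrower array, added after the values were seen, called 0 of the 10 genes and 0 of all genes (371 at an unadjusted p under 0.05). No detection call shows which dim values lie above background.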
